A study of Mus musculus with 6 samples.

Results

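Fc receptors bind the constant part of antibodies, and the transport receptors of the same part of immunity carry antibodies across cells. The 7 genes described here are Fcgr1, Fcgr3 and Fcgr4 (activating receptors for IgG), Fcer1g (the signalling chain they share), Fcgr2b (the inhibitory receptor for IgG), and Fcgrt and Pigr (the transport receptors). They were chosen by name: every non-control probe that the array annotation assigns to these genes was taken. This gave 10 probes out of 56605 on the array. Of the 25805 genes with a tested probe, these are 7. All 10 probes were above background on all 6 arrays and were tested.

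The arrays measured RNA from the whole kidney of 6 mice. The 3 control mice were MRL/MpJ (MRL), and the 3 lupus-prone mice were MRL/MpJ-Fas lpr/lpr (LPR), which carry a defective Fas gene. All mice were female and 6 months of age, and both strains share the MRL/MpJ background. Each mouse gave 1 single-colour array, and the study compared the strains for genes tied to lymphoid tissue formed inside the kidney. The whole organ was used, so fewer cells of a type and less RNA per cell cannot be told apart. The p-values of the probes set the group difference against the spread among mice of a group, with the spread of all tested probes drawn in. The number of arrays limits the precision.

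Activating Fc gamma receptors sit on macrophages, neutrophils and NK cells. When an immune complex cross-links them, kinases of the Src family phosphorylate the activation motif in the common gamma chain encoded by Fcer1g, Syk docks there, and the cell is driven to engulf, release cytokines and kill. Fcgr2b carries an inhibitory motif instead and recruits the phosphatase SHIP, which dampens B cells and myeloid cells. In lupus nephritis, immune complexes lie in the glomeruli. FcRn, the product of Fcgrt with B2m, binds IgG and albumin in acidic endosomes and returns them to the blood or carries them across the cell, in the kidney in podocytes, endothelium and tubules. The polymeric immunoglobulin receptor, Pigr, moves J chain-linked IgA and IgM through epithelium to the lumen.

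The genes of the activating arm rose together in LPR kidneys, and the inhibitory receptor did not pass the test. Values are log2 signals relative to the 75th percentile of the array, and a change is LPR minus MRL on this scale. Of the 10 probes, 6 rose, 0 fell and 4 did not pass the test (limma, adjusted p under 0.05 over all 39924 tested probes). Over all tested probes, 6.53% rose and 6.17% fell. The 6 probes that rose were the 4 probes of Fcgr1, Fcgr3 and Fcgr4, the probe of Fcer1g and 1 of the 2 probes of Pigr. The rises ran from 1.71 to 4.90, and the median change of all tested probes was -0.14. In 8 of the 10 probes every LPR mouse was above every MRL mouse, a pattern found in 11.0% of all tested probes. In 0 of the 10 every LPR mouse was below every MRL mouse, against 26.9% of all tested probes.

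**Figure D1:**
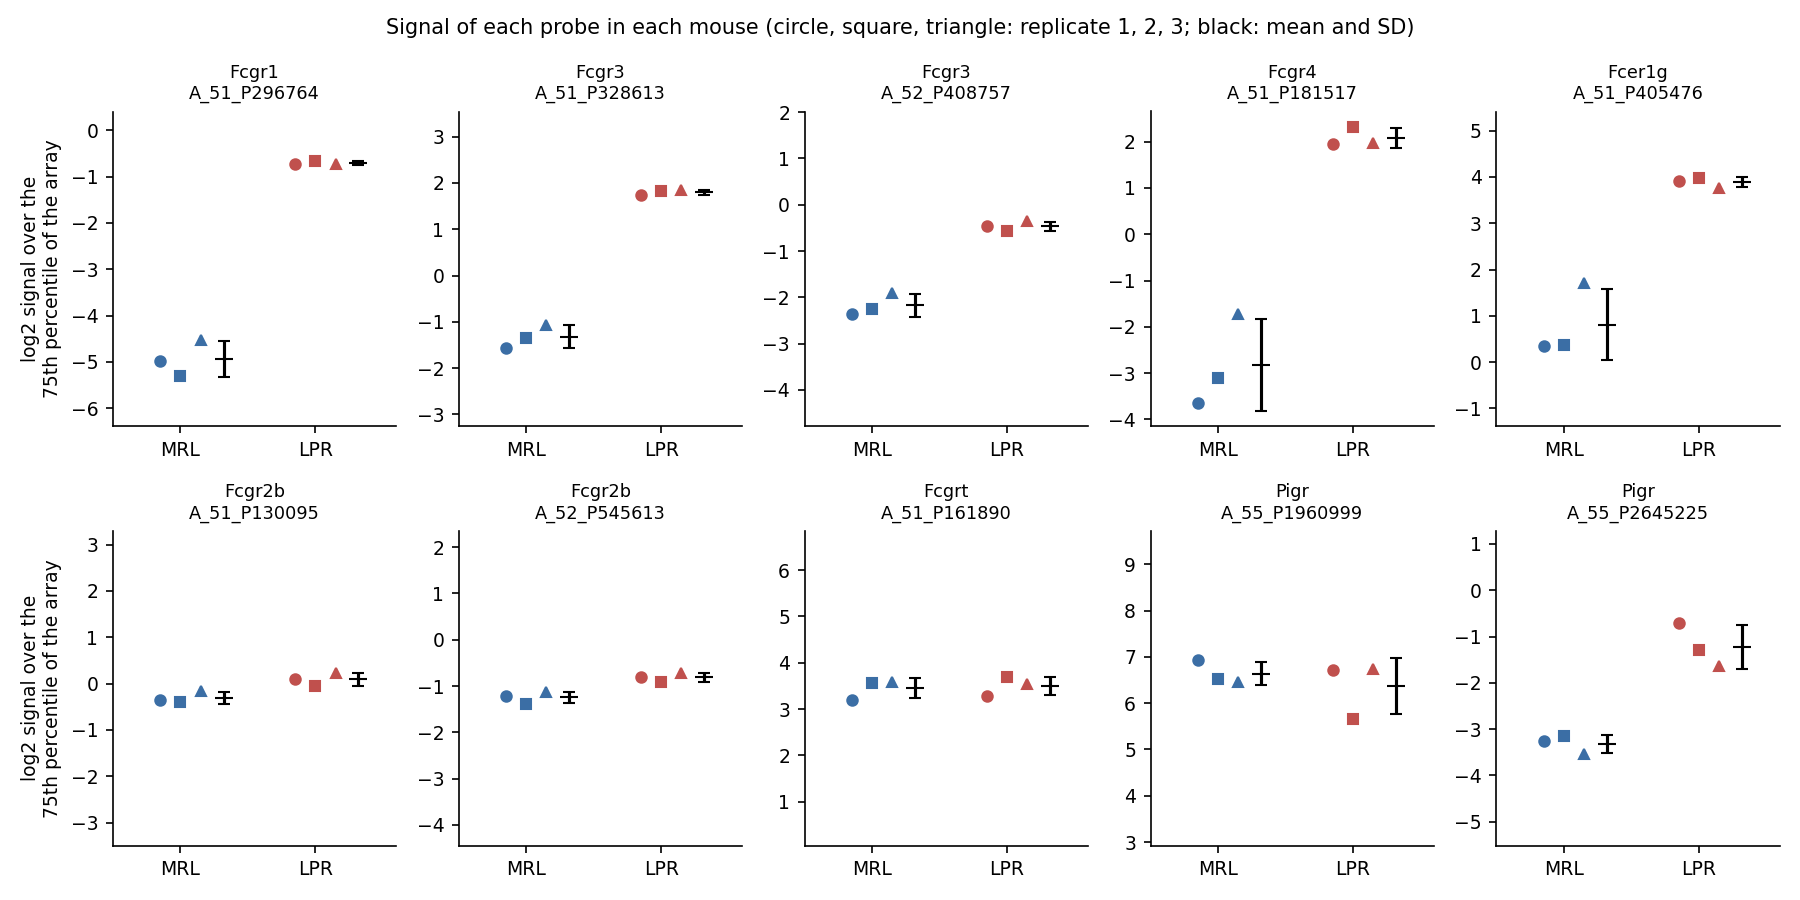
Log2 signal relative to the 75th percentile of the array (vertical axis, the same span in each panel) in the 3 MRL and 3 LPR mice for each of the 10 probes, with the mean and SD in black. The groups lie far apart for the 4 probes of Fcgr1, Fcgr3 and Fcgr4 and for Fcer1g, close together for Fcgr2b, and overlap for Fcgrt and for Pigr probe A_55_P1960999.

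The array files gave all 6 arrays as positions of 1 slide, with 1 scan. Slide row 1 held the 3 MRL mice and LPR 1, and row 2 held the other LPR mice. Between 69.6% and 73.5% of the spots of an array were well above background. Correlations between arrays were 0.990 to 0.993 within a group and 0.961 to 0.971 between groups. Markers of the proximal tubule summed to 603 to 652 times the 75th percentile in MRL mice and to 459 to 512 times in LPR mice, so kidney tissue was measured in both. Of the 2 Fas probes, A_55_P2091676 did not pass the test (change -0.47, adjusted p = 0.234 by limma). In no MRL mouse was A_52_P73385 well above background, and it was higher in the LPR group by at least 1.47-fold (adjusted p = 0.0338 by limma). It entered the test only through the LPR mice, so this p is not independent of the filter. Where these probes lie relative to the lpr mutation was not determined, so they do not check the strain labels.

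Fcgr2b, Fcgr4, Fcgr3 and Fcer1g lie in a cluster on chromosome 1. Their probes follow each other in this order along the chromosome in mm9. Fcgr1 lies apart, on chromosome 3. The promoters of the activating receptors are shown first, since these genes moved together, with that of Fcgr2b beside them as the neighbour that did not pass the test. The sequences are from RefSeq on GRCm38.p6, 250 bases before to 50 after the transcript start, written 5′ to 3′ on the strand of the gene. Fcgr1 is at chr3:96293920-96294219 on the minus strand, Fcgr3 at chr1:171059354-171059653 on the minus strand, Fcgr4 at chr1:171018676-171018975 on the plus strand and Fcgr2b at chr1:170976022-170976321 on the minus strand. Capitals mark matches to the 3 motifs named after the sequences.
Fcgr1: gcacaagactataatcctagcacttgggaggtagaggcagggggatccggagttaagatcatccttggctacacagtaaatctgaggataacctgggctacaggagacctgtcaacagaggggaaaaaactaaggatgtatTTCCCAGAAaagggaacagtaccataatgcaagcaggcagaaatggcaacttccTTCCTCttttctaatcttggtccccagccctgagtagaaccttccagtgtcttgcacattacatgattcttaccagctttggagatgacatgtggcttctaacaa
Fcgr3: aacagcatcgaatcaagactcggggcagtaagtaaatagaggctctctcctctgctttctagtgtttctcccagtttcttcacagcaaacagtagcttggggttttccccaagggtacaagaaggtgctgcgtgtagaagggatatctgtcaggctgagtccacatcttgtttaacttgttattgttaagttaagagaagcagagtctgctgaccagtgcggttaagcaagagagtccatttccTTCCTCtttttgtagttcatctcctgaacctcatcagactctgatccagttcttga
Fcgr4: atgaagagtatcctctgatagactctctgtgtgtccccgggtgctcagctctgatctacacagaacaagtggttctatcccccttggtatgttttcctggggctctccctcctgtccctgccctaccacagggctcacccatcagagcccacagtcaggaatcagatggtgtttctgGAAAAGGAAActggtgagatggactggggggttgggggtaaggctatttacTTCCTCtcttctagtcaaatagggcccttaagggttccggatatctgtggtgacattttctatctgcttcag
Fcgr2b: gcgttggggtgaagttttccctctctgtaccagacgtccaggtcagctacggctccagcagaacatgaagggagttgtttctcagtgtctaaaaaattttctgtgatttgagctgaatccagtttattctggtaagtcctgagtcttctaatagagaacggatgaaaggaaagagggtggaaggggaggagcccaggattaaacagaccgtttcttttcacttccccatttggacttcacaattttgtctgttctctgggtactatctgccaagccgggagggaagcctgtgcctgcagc

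Both strands were searched for a GAS element of STAT factors (TTCNNNGAA), the core of an interferon-stimulated response element (GAAA, any 2 bases, GAAA) and a PU box of the myeloid factor PU.1 (GAGGAA). These patterns do not overlap in the matches found. Fcgr1 held a GAS match from -109 to -101 and a PU box match from -55 to -50, counted from the transcript start. Fcgr4 held a match to the response element core from -73 to -64 and a PU box match from -22 to -17. Fcgr3 held a PU box match from -6 to -1. RefSeq gives another start for Fcgr3, from which the same match lies at -15 to -10, and the window of the start listed first is the one shown. The window of Fcgr2b held no match, nor did those of Fcer1g and Fcgrt, and Pigr held a GAS match from 40 to 48 after the start. Of 32851 promoters of this length, 8.30% held the GAS pattern, 3.44% the response element core and 28.3% the PU box. A match is a run of letters and not a measured binding site.

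Fcgr4 encodes FcγRIV, an activating receptor of monocytes, macrophages and neutrophils that binds IgG2a and IgG2b. Its probe (A_51_P181517, chr1:172959738-172959797 in mm9, plus strand) read -3.65, -3.11 and -1.73 in the MRL mice and 1.95, 2.32 and 1.96 in the LPR mice. The LPR mice lay together, and the MRL mice were spread over 1.92, with MRL 3 highest. The change was 4.90 (SE 0.45, 95% interval 3.83 to 5.98, n = 3 and 3), which is 29.9-fold (limma, adjusted p = 0.000723). It was the largest change among the 10 probes. It was 5.45 without MRL 3, and it was 4.29 with normexp background correction and 5.52 with the slide column as a block.

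Fcgr1 encodes FcγRI, the high-affinity receptor for IgG2a on monocytes and macrophages. Its probe (A_51_P296764, chr3:96088462-96088521, minus strand) read -4.98, -5.30 and -4.52 in the MRL mice. In the LPR mice it read -0.73, -0.66 and -0.73. The LPR values differed by at most 0.07, and the MRL values were near the lowest detectable signal, which was between -6.41 and -5.88 on the 6 arrays. The change was 4.23 (SE 0.20, 95% interval 3.77 to 4.70, n = 3 and 3), or 18.8-fold (limma, adjusted p = 3.63e-05). With normexp background correction, which here adds an offset of 50 to all signals, the change was 2.41 and still passed the test.

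Fcgr3 encodes FcγRIII, the low-affinity receptor for immune complexes on NK cells and myeloid cells. The probe A_51_P328613 (chr1:172981647-172981722, minus strand) read -1.56, -1.34 and -1.07 in the MRL mice and 1.74, 1.82 and 1.85 in the LPR mice. The probe A_52_P408757 (chr1:172984129-172984188, minus strand) read -2.37, -2.25 and -1.90 in the MRL mice and -0.47, -0.56 and -0.36 in the LPR mice. Neither probe showed any overlap of the groups, but the sizes of the rise differed. The change was 3.13 (SE 0.14, 95% interval 2.78 to 3.47) by A_51_P328613, or 8.73-fold (limma, adjusted p = 3.62e-05). It was 1.71 (SE 0.15, 95% interval 1.36 to 2.06) by A_52_P408757, or 3.27-fold (limma, adjusted p = 0.000498). These intervals do not overlap. The annotation lists a different transcript record for each probe, and why the probes differ was not tested.

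Fcer1g encodes the common gamma chain, which the activating IgG receptors need to reach the surface and to signal. Its probe (A_51_P405476, chr1:173159794-173159853, minus strand) read 0.35, 0.38 and 1.70 in the MRL mice and 3.91, 3.97 and 3.76 in the LPR mice. Again the LPR mice lay close together, and MRL 3 stood above the other MRL mice. The change was 3.07 (SE 0.35, 95% interval 2.23 to 3.91, n = 3 and 3), or 8.39-fold (limma, adjusted p = 0.00207). It was 3.52 without MRL 3.

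Within slide row 1, which held LPR 1 and the 3 MRL mice, the changes were 4.77 for Fcgr4, 4.21 for Fcgr1 and 3.096 for Fcer1g. For Fcgr3 they were 3.07 and 1.71 by its probes. These values were close to those over all 6 mice, with 1 LPR mouse behind them. LPR 1 enters both, so part of this closeness is built in. Row 2 held no MRL mouse, so slide row and strain cannot be fully told apart. Within row 1 Fcgrt changed by -0.16, Pigr A_55_P1960999 by 0.07 and Pigr A_55_P2645225 by 2.61.

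**Figure D2:**
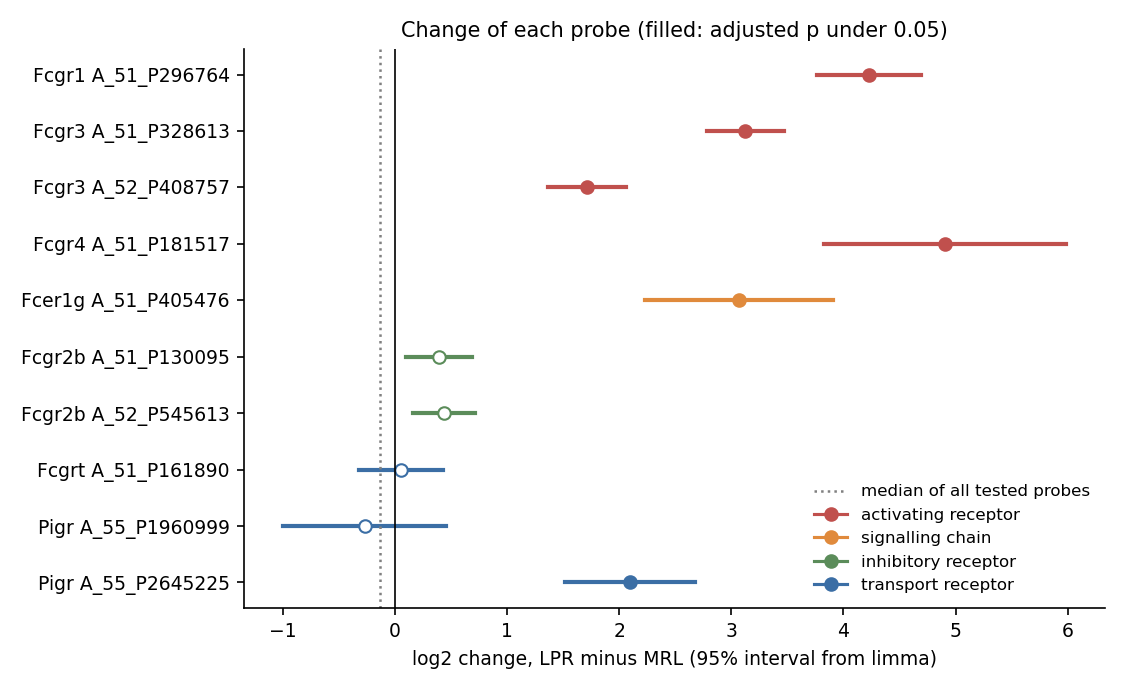
Log2 change, LPR minus MRL, of each of the 10 probes with its 95% interval from limma on the horizontal axis, coloured by the role of the gene, filled where the adjusted p was under 0.05, with the median of all tested probes dotted. The probes of Fcgr1, Fcgr3, Fcgr4 and Fcer1g lie between 1.71 and 4.90, those of Fcgr2b at 0.39 and 0.43, and the probes of Pigr on both sides of 0.

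Fcgr2b encodes FcγRIIb, the inhibitory receptor of B cells, myeloid cells and dendritic cells. The probe A_51_P130095 (chr1:172890988-172891047, minus strand) read -0.35, -0.40 and -0.15 in the MRL mice and 0.10, -0.05 and 0.23 in the LPR mice. The probe A_52_P545613 (chr1:172895833-172895892, minus strand) read -1.22, -1.38 and -1.13 in the MRL mice and -0.80, -0.92 and -0.71 in the LPR mice. Every LPR mouse was above every MRL mouse by either probe, by a gap of 0.10 and 0.21. The change was 0.39 (SE 0.12, 95% interval 0.10 to 0.69), or 1.31-fold, by A_51_P130095 and missed the threshold (limma, adjusted p = 0.0859). It was 0.43 (SE 0.12, 95% interval 0.16 to 0.71), or 1.35-fold, by A_52_P545613 and missed it as well (limma, adjusted p = 0.0548). The call depended on the processing: A_51_P130095 passed under 2 of 21 alternatives and A_52_P545613 under 5, with changes of 0.33 to 0.47 and 0.36 to 0.49 over all of them. The probes followed each other closely, with a root mean square distance of 0.05 between their centred values over the 6 arrays.

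The change of each activating gene was set against that of Fcgr2b within each array, where a shift shared by all probes of an array cancels. Each gene was read by its brightest probe. The rise exceeded that of Fcgr2b by 4.51 (SE 0.54) for Fcgr4, by 3.84 (SE 0.19) for Fcgr1, by 2.73 (SE 0.12) for Fcgr3 and by 2.68 (SE 0.40) for Fcer1g. In each comparison the LPR mice lay above the MRL mice with no overlap. The two-sided exact permutation test gave p = 0.1 for each, the smallest p that 3 against 3 mice allow, and 0.125 after adjustment over 5 comparisons. This exact test cannot go below 0.1 here. With normexp background correction the difference for Fcgr1 was 2.05, and with the mean of its probes the difference for Fcgr3 was 2.00.

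**Figure D3:**
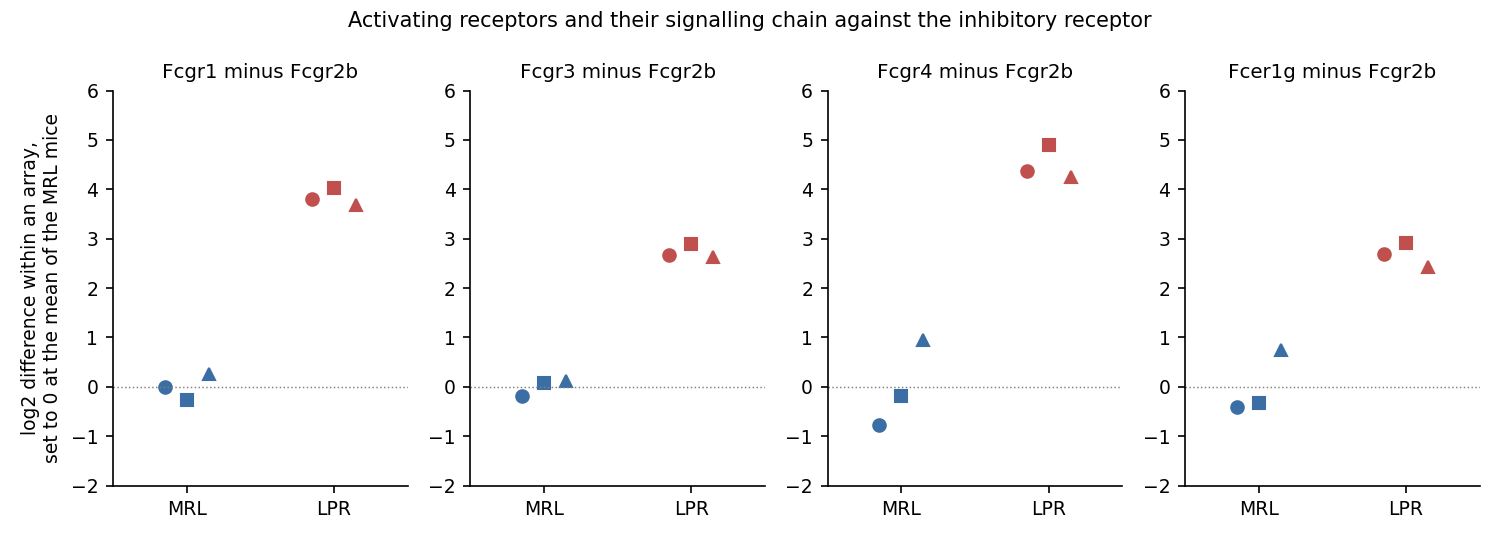
Log2 signal of Fcgr1, Fcgr3, Fcgr4 and Fcer1g minus that of Fcgr2b on the same array (vertical axis, set to 0 at the mean of the MRL mice) in the 3 MRL and 3 LPR mice (circle, square and triangle for replicates 1, 2 and 3). The groups do not overlap in any panel, and the mean difference runs from 2.68 for Fcer1g to 4.51 for Fcgr4.

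Fcgrt encodes the heavy chain of FcRn. Its probe (A_51_P161890, chr7:52350556-52350615, minus strand) read 3.20, 3.57 and 3.58 in the MRL mice and 3.29, 3.68 and 3.53 in the LPR mice. The groups overlapped. The change was 0.05 (SE 0.16, 95% interval -0.32 to 0.43, n = 3 and 3), and it did not pass the test (limma, adjusted p = 0.851). The interval leaves room for a small rise or a small fall, and the sign turned under 3 of the 21 alternatives.

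The partner chain of FcRn rose. B2m, the light chain that FcRn shares with MHC class I, rose 3.65-fold (change 1.87, SE 0.12; limma, adjusted p = 0.000148). Its values were 4.92, 5.05 and 5.28 in the MRL mice and 6.91, 6.95 and 6.997 in the LPR mice. Of the 6 genes on the list of FcRn partners and proximal tubule protein uptake, B2m rose, 1 fell and 4 did not pass. Over the genes with a tested probe, 7.12% rose and 5.47% fell. The gene that fell was Lrp2, megalin, the endocytic receptor of the proximal tubule, with a change of -0.39 (SE 0.10; limma, adjusted p = 0.0492). It fell only by its brightest probe, and its other 4 tested probes had negative changes that did not pass. Dab2, an adaptor of this uptake, was counted as not passing by its brightest probe (-0.23), but 2 of its other 3 probes fell, with changes of -0.90 and -0.49. The partner of megalin, Cubn, changed by -0.36 (adjusted p = 0.0677 by limma). The median of the list was -0.30, and that over all genes was -0.12. Tubule markers lay in the same direction. All 7 proximal tubule markers had negative changes, with a median of -0.36, and 3 of them fell, Lrp2 included. Lrp2 and Cubn are on both lists by the same probes, so the lists are not independent. All 5 markers of the thick ascending limb and distal convoluted tubule were negative too, with a median of -0.57, and 1 fell. A negative sign was common on these arrays: 66.2% of all tested probes changed by -0.019 or lower. The part of the tubule in these values was not tested.

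Pigr was read by 2 probes that gave different results, and their sequences tell them apart. The mm9 position given for A_55_P2645225 is chr1:132741106-132741165, and that for A_55_P1960999 is chr4:151670425-151670484, on another chromosome. Capitals mark the run made of A and G alone, which takes up all 60 bases of A_55_P1960999.
A_55_P2645225: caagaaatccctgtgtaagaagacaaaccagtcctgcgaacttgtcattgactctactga
A_55_P1960999: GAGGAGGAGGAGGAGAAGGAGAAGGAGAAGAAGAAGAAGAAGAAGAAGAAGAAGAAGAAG
The repeat is rare on the array: 15 of 56605 probes hold A and G alone. Of these 15, 0 rose and 9 fell, where 6.17% of all tested probes fell. All 9 were among the 10 that do not share a run of 25 bases with A_55_P1960999. A_55_P1960999 shares a run of 25 bases or more with 11 other probes, each annotated to a different gene. The annotation of A_55_P1960999 also lists transcripts of Zfp811 and Rhox8. None of the other 9 probes of these genes shares 25 bases with any probe on the array. Whether a probe also binds transcripts of related genes was not tested.

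By A_55_P2645225 Pigr read -3.26, -3.15 and -3.53 in the MRL mice and -0.71, -1.30 and -1.65 in the LPR mice. The groups were well apart, and the LPR mice were more spread than for the activating receptors, with LPR 1 highest. The change was 2.10 (SE 0.24, 95% interval 1.52 to 2.67, n = 3 and 3), or 4.27-fold (limma, adjusted p = 0.00210). It was 2.61 within slide row 1, and it was 1.497 with normexp background correction. Under the test of the study's methods on linear values it missed the threshold (adjusted p = 0.107).

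By A_55_P1960999 the gene read 6.93, 6.53 and 6.46 in the MRL mice and 6.70, 5.66 and 6.74 in the LPR mice. The groups overlapped, and LPR 2 was lowest. The change was -0.27 (SE 0.31, 95% interval -0.995 to 0.46; limma, adjusted p = 0.582). The 11 probes that share its repeat changed by -0.37 to -0.06, none passed the test, and LPR 2 was the lowest mouse in all 11. The probe thus followed the probes with the same repeat and not the other Pigr probe. Pigr minus Fcgrt changed by -0.32 (SE 0.53) with this brighter probe (two-sided exact permutation test, p = 0.7). With A_55_P2645225 in its place, a choice made after its values were seen, the difference was 2.04 with no overlap of the groups (two-sided exact permutation test, p = 0.1, the smallest possible).

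**Figure D4:**
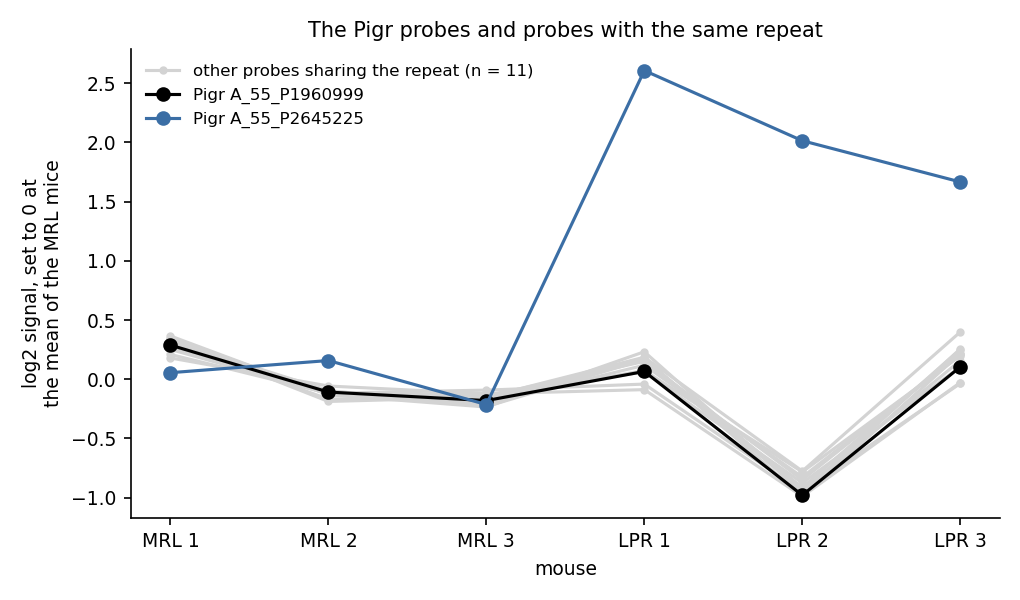
Log2 signal of the 2 Pigr probes and of the 11 other probes that share 25 bases of the A and G repeat (vertical axis, set to 0 at the mean of the MRL mice) in each mouse. A_55_P2645225 is higher in all 3 LPR mice, and A_55_P1960999 dips in LPR 2 together with the 11 repeat probes in grey.

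The transcript of Jchain, which joins IgA and IgM into the polymers that Pigr carries, rose 22.5-fold (change 4.49, SE 0.37; limma, adjusted p = 0.000396). Its values were 0.85, 1.90 and 1.88 in the MRL mice and 5.41, 6.41 and 6.28 in the LPR mice. The other 8 tested genes of this list, which sort and move vesicles in epithelium, did not pass. Rab11a, a GTPase of recycling endosomes, changed by 0.01, and Rab17, which acts in transcytosis, by -0.20. Every LPR mouse lay below every MRL mouse for Ap1m2 (-0.43, adjusted p = 0.0572 by limma), Yes1 (-0.43), Rab25 (-0.37) and Myo5b (-0.35). That pattern was found in 26.9% of all tested probes. For Rab3d (0.19, adjusted p = 0.315 by limma) every LPR mouse lay above every MRL mouse, as in 11.0% of all tested probes.

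Of the 24 listed genes that signal behind the receptors, 20 rose, 0 fell and 4 did not pass, against 7.12% of all genes that rose. Whether these genes changed in cells that carry the receptors was not tested, and 5 of 6 T cell markers rose too. The median change of the 24 genes was 1.82. On the activating side 15 of 18 rose, by 1.35-fold to 11.0-fold. Among the largest rises were those of Lcp2, the adaptor SLP-76 (11.0-fold, adjusted p = 0.000884) and of Rac2, a GTPase of the phagocyte oxidase (8.72-fold, adjusted p = 0.00218), by limma. Syk, the kinase that docks on the gamma chain, rose 7.75-fold (change 2.95, SE 0.15; limma, adjusted p = 5.57e-05). Syk read -2.28, -2.16 and -1.88 in the MRL mice and 0.92, 0.99 and 0.63 in the LPR mice. Tyrobp, the related adaptor DAP12, rose 7.12-fold.

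On the inhibitory side 5 of 6 rose, by 1.48-fold to 3.41-fold. Inpp5d, the phosphatase SHIP that Fcgr2b recruits, rose 3.41-fold (change 1.77, SE 0.21; limma, adjusted p = 0.00250). Its values were -1.55, -1.26 and -0.70 in the MRL mice and 0.53, 0.61 and 0.66 in the LPR mice. The difference between this change and that of Fcgr2b was not tested. Dok1, an adaptor that restrains Ras, rose 2.75-fold, and Ptpn6, the phosphatase SHP-1, rose 2.12-fold. The median change was 2.37 for the activating list and 0.95 for the inhibitory list, and the difference between the lists was not tested.

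The 4 signalling genes that did not pass were Cd247, Gab2 and Prkcd on the activating side, with changes of 0.16, 0.08 and 0.14, and Cblb, a ubiquitin ligase, with -0.06. Each gene was read by its brightest probe, and other probes disagreed for 3 genes. For Cd247, the zeta chain of the T cell receptor complex, the other 2 tested probes, each above background in 1 of 3 MRL mice, rose, with changes of 0.99 and 1.13. For Lyn the brightest probe rose by 1.23 and another fell by 0.52. For Ptpn6, 1 of the other 3 probes did not pass, with a change of 0.07.

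**Figure D5:**
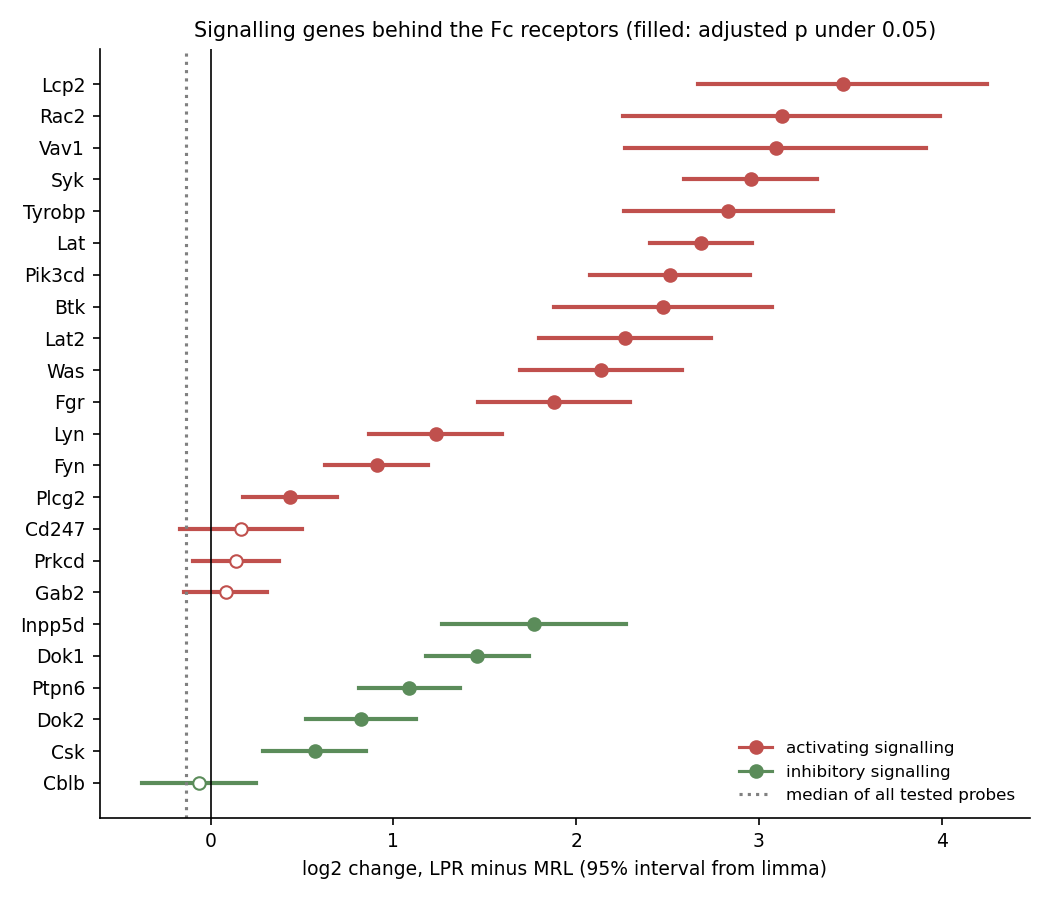
Log2 change, LPR minus MRL, of the signalling genes reported here by their brightest probe with 95% intervals from limma (horizontal axis), activating above and inhibitory below, filled where the adjusted p was under 0.05, with the median of all tested probes dotted. Activating genes reach 3.46 (Lcp2), and inhibitory genes reach 1.77 (Inpp5d).

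Other receptors of the family were mixed. Of 14 listed Fc receptors and Fc-binding proteins, 13 were on the array and 11 were tested. Of these 4 rose, 0 fell and 7 did not pass, and the median change was 0.20, where 7.12% of all genes rose and 5.47% fell. Fcrla, a receptor-like protein inside B cells whose probe lies next to Fcgr2b in the chromosome 1 cluster (chr1:172848103-172848162), was not well above background in any MRL mouse. It was higher by at least 6.33-fold in the LPR group (limma, adjusted p = 2.43e-05). Fcrl1 of B cells was likewise at least 2.08-fold higher (limma, adjusted p = 2.21e-05). These bounds compare the mean of the LPR mice with the lowest signal that was well above background on the MRL arrays. Fcrla and Fcrl1 met the filter only through the LPR mice, where they are high, so their p-values are not independent of it. Without them 2 of 9 genes rose. Fcrl5, also of B cells, did not pass by its brightest probe, and its other 2 tested probes, which were higher, also met the filter only through the LPR mice. Fcmr, the receptor for IgM, rose 3.66-fold (limma, adjusted p = 0.00792), and its probe lies on chromosome 1 near that of Pigr (chr1:132777256-132777315). Trim21, the antibody receptor of the cytosol, rose 1.88-fold. Fcer1a and Fcrl6 were below background on all 6 arrays. Fcrls did not pass (change 1.61, SE 0.86), and MRL 3 at -1.32 lay above the LPR mice.

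Markers of several blood cells moved with the receptors. Of 10 tested macrophage and monocyte markers, 9 rose, against 7.12% of all genes, and the summed signal of the list was 36.2 to 44.2 times the 75th percentile in MRL mice and 132 to 139 times in LPR mice. Aif1 rose 9.92-fold, Cd68 8.59-fold and Adgre1 7.14-fold, and Itgam did not pass. The 18 tested probes of these markers changed by at most 3.41. The changes of Fcgr1 and Fcgr4 were larger than this by 0.82 and 1.49. With normexp background correction the largest change of these markers was 3.16, that of Fcgr4 was 4.29 and that of Fcgr1, at 2.41, was below it. Markers of other cells rose more than Fcgr1 without this correction: Cd2 by 4.64, Jchain by 4.49 and Nkg7 by 4.42. By brightest probes, the largest rises on the dendritic cell, B cell and neutrophil lists were smaller, at 3.82, 3.50 and 2.48. Of the other lists, 5 of 6 T cell, 4 of 5 NK cell and 5 of 6 plasma cell markers rose. So did 3 of 6 neutrophil and 4 of 6 dendritic cell markers. On the mast cell and podocyte lists 0 of 6 and 0 of 5 passed the test. The NK cell markers that rose were Nkg7, Klrk1, Eomes and Prf1. Ncr1 did not pass (change 0.805), and Klrb1c was not tested. The neutrophil markers Ly6g (0.37), Cxcr2 (0.46) and Elane (-0.019) did not pass, and S100a8, S100a9 and Mpo rose. Whether the markers rose in cells of the named type was not tested. Of the dendritic and plasma cell markers, 1 each met the filter only through the LPR mice, and without these 3 of 5 and 4 of 5 rose. Of 6 B cell markers, 3 rose and 1 fell, Ms4a1, for which another probe, above background in 2 of 3 MRL mice, rose by 4.99. In all, 7 marker genes had a tested probe with a call other than that of the brightest. Of 5 endothelial markers, 0 rose and 1 fell, and of 5 collecting duct markers 0 passed. The part of these cells in the change of the receptors was not tested.

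MRL 3 stood above the other MRL mice in many of these genes. It exceeded their mean by 1.65 for Fcgr4, 1.34 for Fcer1g, 0.62 for Fcgr1 and 0.39 and 0.41 for Fcgr3. For Fcgr2b the excess was 0.22 and 0.17, for Fcgrt 0.19 and for the Pigr probes -0.27 and -0.32. Over all tested probes the median excess was 0.01. MRL 3 was also the highest MRL mouse for 13 of 18 activating signalling genes and 7 of 10 macrophage markers, and for 0 of 6 T cell markers. The counts were 4 of 6 for inhibitory signalling, 6 of 9 for the Jchain and Pigr transcytosis list, 3 of 6 for neutrophils and 3 of 5 for collecting duct. They were 0 of 5 for podocytes and 0 of 5 for endothelium. Among the rest they were 2 of 11 for other Fc receptors, 2 of 7 for proximal tubule and 1 of 6 for mast cells. The FcRn list and B, plasma and dendritic cells had 2 of 6 each. NK cells and the thick ascending limb and distal convoluted tubule had 2 of 5 each. The share over all tested probes was not determined. Adgre1, the macrophage antigen F4/80, read -1.57 and -1.76 in MRL 1 and MRL 2 and 0.68 in MRL 3. All 6 probes that rose also did so without MRL 3.

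The genes with the profile most like Fcer1g were found by the root mean square distance of centred log2 values over the 6 arrays, among 25798 other genes. They were Rac2 (0.06), Ncf4 (0.10), Vav1 (0.10), Batf (0.11) and the transcript ENSMUST00000103262 (0.11). Rac2 and Vav1 were also highest in MRL 3 among the MRL mice, at -0.08 and -0.29. For Fcgr2b the nearest were Psg23, A430078G23Rik, Osmr, ENSMUST00000080726 and Pigz, at distances of 0.02 to 0.06. For Fcgrt they were Ap1s1, Slc29a1, Tmem261, ENSMUST00000185704 and NAP097543-001, all at 0.04. For Pigr the brightest probe was nearest to Dcc, Gm33195, LF200859, Gm20753 and NAP072206-1, each through a probe with the shared repeat. The probe A_55_P2645225, taken after its values were seen, was nearest to Hpca (0.12), Clec5a (0.20), Ly6i (0.21), Ear10 (0.21) and Gm10134 (0.22). The MRL means of ENSMUST00000103262 (-7.56) and Hpca (-6.35) lay below the lowest signal well above background on the MRL arrays (-6.01 to -5.88). Their steps between the groups are thus measured from values below detection. The nearest genes share the 6 arrays and the step between 2 groups, and no p is given.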

How the data were processed

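Kidney RNA of 3 MRL and 3 LPR mice was hybridised to 6 single-colour Agilent arrays. The deposited intensity values of each array were made by the authors with Agilent Feature Extraction 12.0.3.1 (submitters' processing notes), which subtracted the background. The log2 intensity was reduced by the 75th percentile of its array, as the study's methods did. Control spots and outlier spots were left out, and repeated spots of a probe were averaged. Probes were tested where well above background on at least 3 of 6 arrays. The authors also deposited intensity values divided by this percentile, used as an alternative. MRL and LPR mice were set against each other by limma 3.58.1 (R 4.3.3). Its p-values were adjusted over every tested probe by the Benjamini-Hochberg method, and those under 0.05 were called. The brightest tested probe stands for a gene of a list. The steps were tested on simulated data.

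The genes and lists were chosen with earlier results of these data known. All probes of the 7 genes are named, and every signalling gene may be named. A signalling gene is not reported here and remains in the counts. From the other pathway lists the 3 largest rises and falls past the threshold were named, with the 5 nearest profiles of Fcer1g, Fcgr2b, Fcgrt and Pigr. Other named genes were chosen after their values were seen. The alternatives were other background corrections, normalizations, filters and tests, the slide position or replicate number as a block, averaging a gene's probes, and omitting each mouse. Probe positions are those of the array annotation (mm9). Exon and intron annotation of that build was not used here. Figures were drawn with matplotlib 3.10.9.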

Additional observations from a re-analysis of the deposited data

How the results depend on the processing

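The probes of Fcgr1, Fcgr3, Fcgr4 and Fcer1g passed the test under all 21 alternatives, and Pigr A_55_P2645225 under all but the methods' test on linear values. Between 5 and 8 of the 10 probes rose under any alternative, and none fell. The changes of Fcgr2b passed for both probes with normexp background correction and with an intensity trend. A_52_P545613 also passed with quantile normalization, with the percentile over probes detected on all arrays and with the filter on all 6 arrays. The change of Fcgrt turned to -0.16 with the slide row as a block, to -0.0735 without MRL 1 and to -0.0401 without LPR 2. Its values without a mouse ran from -0.0735 to 0.159. That of Pigr A_55_P1960999 turned to 0.0657 with the slide row as a block and to 0.0849 without LPR 2, and ran from -0.457 to 0.0849 without a mouse. The difference of Pigr minus Fcgrt turned to 0.86 with the mean of the probes, to 0.125 without LPR 2 (-0.597 to 0.125 without a mouse) and to 2.04 with the chromosome 1 probe, an alternative chosen after seeing the data. The signalling genes that rose numbered 16 to 20, and none fell.

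Of all tested probes, 2606 rose and 2462 fell. The number that fell was 4498 with normexp background correction, 1093 with no filter on dim probes and 973 with the slide column as a block. With the methods' test 1736 rose and 1386 fell on log2 values, and 1444 and 1354 on linear values. With the slide row as a block 1458 rose and 463 fell, and the share of higher among the calls went from 51.4% to 75.9%, against 36.0% with normexp background correction. Leaving out each mouse in turn gave 1958 to 2370 that rose and 760 to 2269 that fell. The cause of these shifts was not tested. With the replicate number as a block 2199 rose and 1117 fell. Same-numbered mice deviated together with r of 0.115, 0.0203 and 0.00516. Whether they share more than a number is not known. The block changed no call of the 10 probes. With 3 mice per group, a p under 0.1 is out of reach for the exact tests. The MRL values of Fcgr1 lay near the detection limit, and its change was 4.23, or 2.41 with normexp background correction.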
